A study of Mus musculus with 4 samples.

Results

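Cholesterol export genes controlled by the liver X receptors (LXRs) were followed in mouse dendritic cells (DCs) that had lost the microRNA miR-142. The set has 10 listed genes: the sterol transporters Abca1 and Abcg1, the receptors Nr1h2, Nr1h3 and Rxra, and Apoe, Mylip, Srebf1, Lpcat3 and Pltp. Each was read through its highest-mean probe set that carries a single gene symbol. This gave values for 9 of the 10, among 19938 genes in all, because no single-symbol probe set was found for Nr1h2. The set was chosen by the ko minus wt values of Abca1, 1 of 17 genes that a genotype fit over all genes had called. The genotype values of the set are therefore described here without a test.

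Bone marrow from C57BL/6 mice that were miR-142-/- (ko) or miR-142+/+ (wt) was cultured for 8 days with 200 ng/ml of Flt3-L, the cytokine that drives DC development. Cells lacking B220 and carrying CD11c were then sorted. The gate for CD8-equivalent DCs took CD172-negative cells with CD24 and low CD11b, and the gate for CD4-equivalent DCs took CD172-positive cells with low CD24 and with CD11b. The 4 groups were ko CD8-equivalent, wt CD8-equivalent, ko CD4-equivalent and wt CD4-equivalent DCs, with 1 array each and therefore no replicates. The labels do not give the age of the mice, how many mice were used, or which part of the miR-142 locus was removed.

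LXRs are nuclear receptors that sense oxysterols. They bind DNA as heterodimers with a retinoid X receptor (RXR), and when a cell holds surplus cholesterol they switch on genes that move it out. ABCA1 hands cholesterol and phospholipid to lipid-poor apolipoproteins, ABCG1 hands cholesterol to HDL particles, and further LXR targets adjust lipoproteins, membrane phospholipids and fatty acid synthesis. In macrophages and DCs this pathway is known for limiting lipid loading.

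The miR-142 locus makes a microRNA from each arm of its hairpin. Both mature sequences are shown because this locus is what the ko cells lack by their labels. They come from RefSeq (build GRCm38.p6, plus strand of chromosome 11), are written 5′ to 3′, and carry the seed, bases 2 to 8, in capitals.
mmu-miR-142a-5p (chr11:87756867-87756887): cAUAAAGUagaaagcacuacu
mmu-miR-142a-3p (chr11:87756903-87756925): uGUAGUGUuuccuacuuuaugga
The arms have different seeds and so would pair with different target sites. Transcript ends of the set were not analysed here, so it is not known from these data whether any member holds such a site.

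Abca1 and Srebf1 are both known direct LXR targets, and the RefSeq promoter windows of these genes are shown because the arrays read them so differently. Each line gives the 250 bases before a start site, 5′ to 3′ on the minus strand of GRCm38.p6. For Srebf1 this is 1 of 3 annotated start sites.
Abca1 (chr4:53159896-53160145): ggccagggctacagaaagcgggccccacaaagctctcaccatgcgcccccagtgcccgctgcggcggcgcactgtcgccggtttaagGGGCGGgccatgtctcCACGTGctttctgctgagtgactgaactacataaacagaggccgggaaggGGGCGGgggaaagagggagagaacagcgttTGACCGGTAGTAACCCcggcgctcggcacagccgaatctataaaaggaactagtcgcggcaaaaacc
Srebf1 (chr11:60210472-60210721): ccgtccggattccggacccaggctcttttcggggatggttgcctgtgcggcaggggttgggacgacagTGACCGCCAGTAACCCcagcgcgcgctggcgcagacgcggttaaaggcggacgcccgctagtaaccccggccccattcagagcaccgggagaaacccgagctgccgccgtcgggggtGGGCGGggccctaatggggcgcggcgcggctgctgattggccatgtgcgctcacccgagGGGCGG
Capitals mark the matches of a motif search on both strands. The long capital run in each is a DR4 repeat, the LXR and RXR binding pattern, in which a pair of hexamers stands 4 bases apart. It spans positions -67 to -52 from the Abca1 start and -182 to -167 from the Srebf1 start. The first search allowed AGGTCA or GGGTCA, the forms AGGTTA or GGGTTA, and the forms AGTTCA or GGTTCA, and no repeat of these matched a window of the set. CGGTCA was added after the Abca1 window had been read, because the LXR element known there uses it. With it, 2 of 15 windows (9 of the 10 genes, Abcg1 having none) matched. Over 32851 RefSeq windows of 300 bases, 0.174% matched with it and 0.143% without it. The Abca1 match was fixed by this addition, so the count in the set is not read against that share. The other capitals are the GC box GGGCGG, present in 35.7% of all windows, and in Abca1 the palindromic E-box CACGTG, present in 7.15%. The single hexamer AGGTCA (16.3% of windows) matched in the set only at Rxra, and the sterol element TCACCCCAC (0.551%) matched at no member. A match describes letters in these windows and says nothing of binding in these cells.

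Array values are RMA summaries on the log2 scale, so a difference of 1 is 2-fold. A difference was read only where the higher of its values reached 5.68, called the floor. Between 9774 and 9821 genes reached the floor on an array, and the column medians lay between 5.87 and 5.94. Mir142 read 4.79 and 9.87 in ko and wt CD8-equivalent DCs and 4.92 and 10.37 in ko and wt CD4-equivalent DCs. Of the CD4-equivalent DC markers compared, 8 of 8 in ko and 8 of 9 in wt read lower in the CD8-equivalent cells by 2-fold or more. Over all genes, 3.90% in ko and 3.14% in wt did. Markers of CD8-equivalent DCs were at least 2-fold higher in those cells for 3 of 10 in ko (3.39% of all genes), with 1 (Cadm1) lower. In wt, 7 of 11 of these markers were higher (2.10%). On the ko CD4-equivalent array 4 of 10 of these markers were at least 2-fold above the wt value, against 1.39% of all genes. Their part in the results was not tested. All values come from sorted populations, in which fewer cells of a type and less RNA per cell cannot be told apart.

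**Figure D1:**
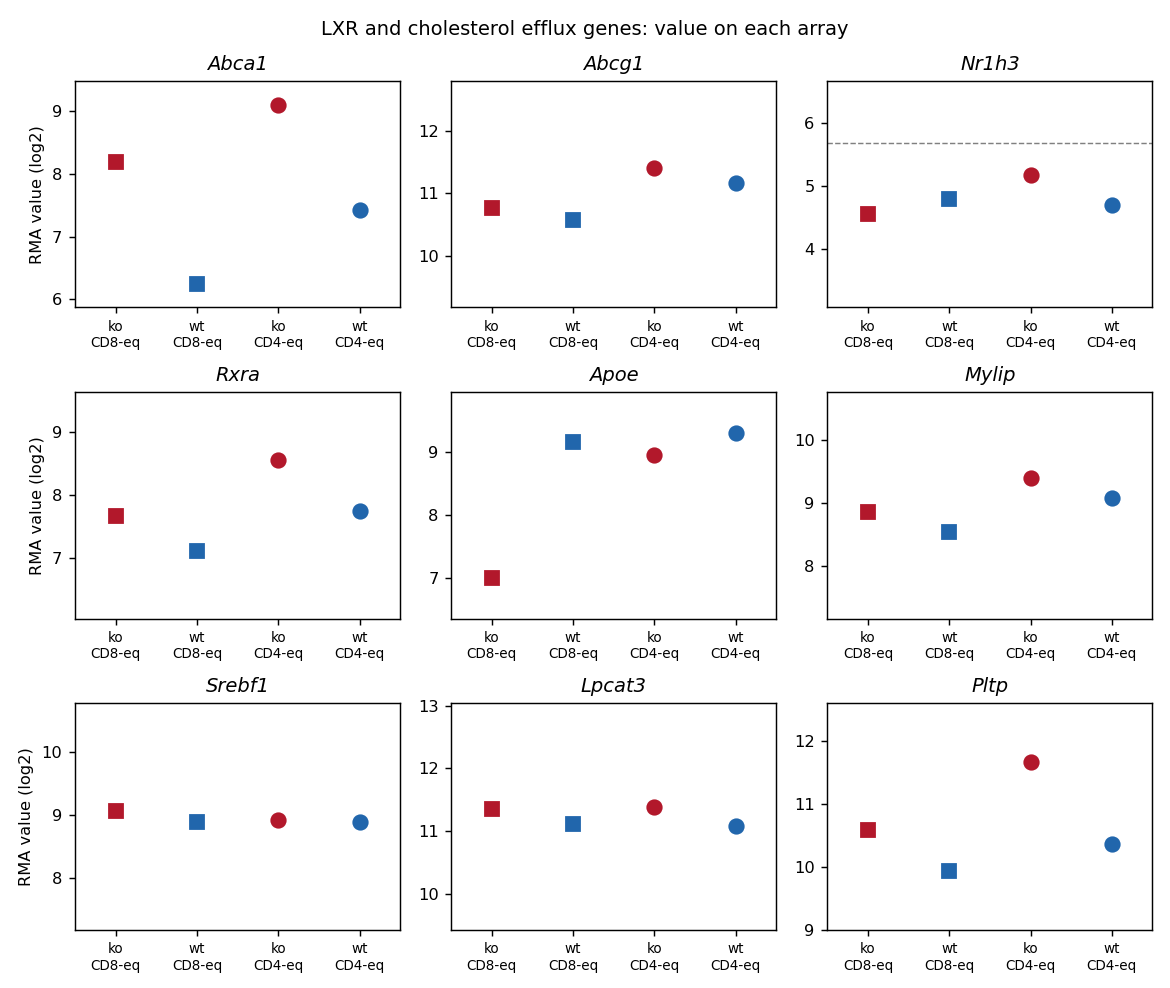
RMA values (log2, vertical axis) of the 9 measured genes on the 4 arrays, 1 panel per gene, each panel spanning the same range of log2 units. Red points are ko and blue points wt, squares are CD8-equivalent and circles CD4-equivalent DCs, and the dashed line is the floor of 5.68, which all 4 Nr1h3 values lie under. Abca1 is higher in ko in both subsets, and Apoe is low on the ko CD8-equivalent array alone.

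Abca1, the pump that loads cholesterol and phospholipid onto apolipoproteins, had the largest difference above 0 between the genotypes among the members in both subsets. It read 8.18 in ko and 6.25 in wt CD8-equivalent DCs, and 9.10 in ko and 7.42 in wt CD4-equivalent DCs. Both ko arrays thus lay above both wt arrays. The ko level was 3.81-fold higher in CD8-equivalent DCs, rank 11 from the top of 9972 genes compared, and 3.20-fold higher in CD4-equivalent DCs, rank 39 of 9978. The mean log2 difference was 1.80 ± 0.13 (SE from the limma fit, 2 pairs of arrays). Abcg1, the transporter that passes cholesterol to HDL, differed far less: it read 10.77 in ko and 10.58 in wt CD8-equivalent DCs, and 11.40 in ko and 11.16 in wt CD4-equivalent DCs. Its differences of 0.19 and 0.24 left the ko CD8-equivalent array below the wt CD4-equivalent one.

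Of the receptors, Nr1h3 encodes LXR alpha and Rxra encodes its DNA-binding partner RXR alpha. Nr1h3 lay under the floor on all 4 arrays, at 4.55 in ko and 4.79 in wt CD8-equivalent DCs and at 5.18 in ko and 4.70 in wt CD4-equivalent DCs. No difference was read from it. Rxra read 7.67 in ko and 7.12 in wt CD8-equivalent DCs, and 8.55 in ko and 7.75 in wt CD4-equivalent DCs. It was 1.46-fold and 1.75-fold higher in ko, a mean log2 difference of 0.68 ± 0.13 (SE). The remaining receptor, LXR beta, is encoded by Nr1h2 and was not analysed here.

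The other LXR targets of the set varied widely. Pltp, a plasma protein that transfers phospholipid between lipoproteins, read 10.59 in ko and 9.93 in wt CD8-equivalent DCs, and 11.67 in ko and 10.36 in wt CD4-equivalent DCs. It was 1.58-fold and 2.47-fold higher in ko, second to Abca1 among the differences above 0 in each subset. Apoe, the apolipoprotein that accepts exported cholesterol, ran the other way. It read 7.001 in ko and 9.16 in wt CD8-equivalent DCs, and 8.95 in ko and 9.30 in wt CD4-equivalent DCs. The 4.46-fold lower value in ko CD8-equivalent DCs held rank 17 from the bottom of 9972 genes, while the gap in CD4-equivalent DCs was 1.27-fold. Apoe was thus low on a single array, and the other 3 lay between 8.95 and 9.30.

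Mylip, Srebf1 and Lpcat3 stayed within 1.25-fold between the genotypes. Mylip encodes the ubiquitin ligase IDOL, which marks the LDL receptor for breakdown. It read 8.85 in ko and 8.53 in wt CD8-equivalent DCs, and 9.39 in ko and 9.08 in wt CD4-equivalent DCs, differences of 0.32 and 0.31. Lpcat3, which puts polyunsaturated chains into membrane phospholipids, read 11.36 in ko and 11.11 in wt CD8-equivalent DCs, and 11.39 in ko and 11.08 in wt CD4-equivalent DCs. Its differences were 0.25 and 0.31, and both ko arrays lay above both wt arrays. Srebf1, the regulator of fatty acid synthesis whose promoter is printed above, read 9.06 in ko and 8.89 in wt CD8-equivalent DCs, and 8.92 in ko and 8.90 in wt CD4-equivalent DCs. Its differences were 0.17 and 0.02, beside 1.93 and 1.68 for Abca1. Both printed windows hold a DR4 repeat only by the search widened after the Abca1 window had been read.

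Of the 9 measured members, 8 reached the floor, each on all 4 arrays, and entered every comparison. In CD8-equivalent DCs, 1 of these 8 was at least 2-fold higher in ko (Abca1), against 1.14% of all genes compared, and 1 was at least 2-fold lower (Apoe), against 1.00%. In CD4-equivalent DCs, 2 were at least 2-fold higher (Abca1 and Pltp), against 1.39% of all genes, and 0 were at least 2-fold lower, against 0.952%. The median difference of the 8 was 0.28 in CD8-equivalent and 0.31 in CD4-equivalent DCs, beside 0.0044 and -0.08 over all genes compared. In each subset 7 of the 8 lay above 0, as did 50.7% and 36.2% of all genes, with Apoe the member below 0. Since the genotype contrast led to the set, nothing is read from these counts. After centring each array on its median, the share of higher genes among all genes past 2-fold in CD8-equivalent DCs was 40.9%, against 53.3% as deposited.

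**Figure D2:**
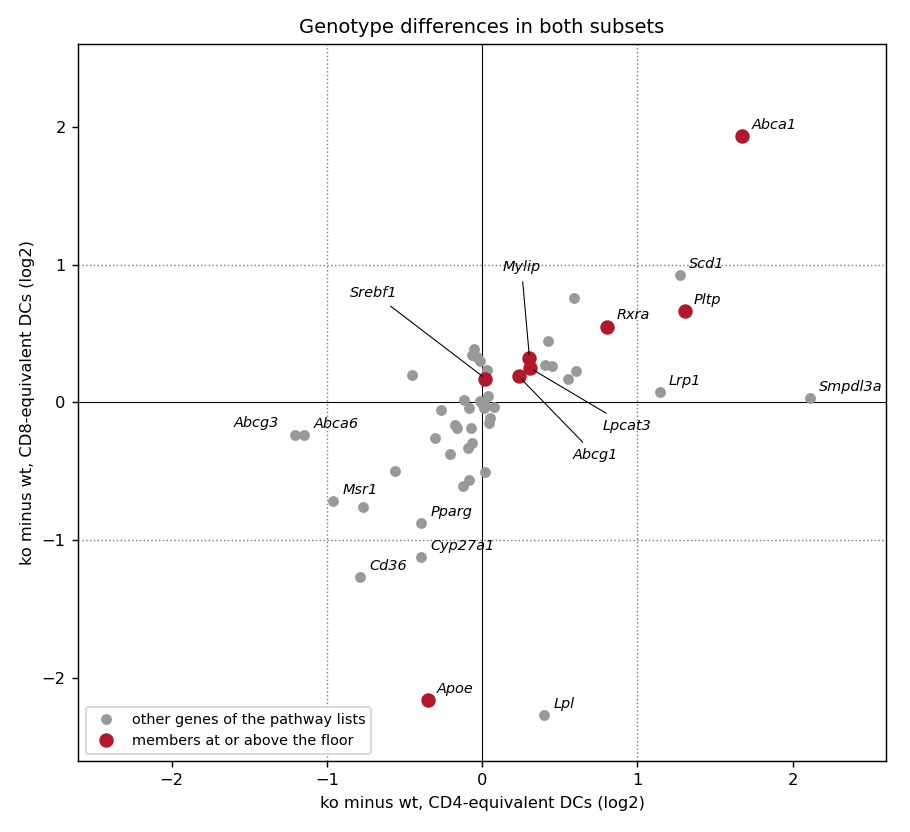
Difference between ko and wt in CD4-equivalent DCs (horizontal, log2) and in CD8-equivalent DCs (vertical, log2). Red points are the 8 members at or above the floor, grey points are other genes of the pathway lists that could be compared, and dotted lines mark 2-fold. Abca1 is the only red point beyond 2-fold on both axes, and Apoe and Lpl stand apart at the bottom.

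The subset contrast did not lead to the set, and it was fitted over all genes. For Abca1 it shares its residual, 1 degree of freedom, with the genotype fit that had called the gene, so the Abca1 subset values are a description and no p-value is given for them. The other members were also listed with results of these data known. The question was whether these genes differ between CD8-equivalent and CD4-equivalent DCs whatever the genotype. Rxra, Abcg1 and Mylip were lower in CD8-equivalent DCs in both genotypes and passed limma with Benjamini-Hochberg adjustment over 10239 genes. With Abca1 counted, the fit called 4 of 8 members lower, against 6.35% of all genes, and 0 higher, against 7.98%. At an unadjusted limma p under 0.05, 5 of the 8 members were lower, beside 1332 of all 10239 genes lower and 2077 higher. Both member counts include Abca1, whose call is not independent of its choice, so neither is read as a test of the set. Here ko and wt stand in for replicates, and no label names separate cultures or animals, so a p-value reflects nothing beyond the scatter of these 4 arrays, possibly technical. When the genotype term was left out, 0 members passed.

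The difference for Abca1 was -0.91 in ko and -1.17 in wt, with a mean of -1.04 ± 0.13 (SE). The ko CD8-equivalent array still read above the wt CD4-equivalent array, so the subsets overlapped across genotypes. For Rxra it was -0.89 and -0.63 (mean -0.76 ± 0.13, adjusted p = 0.026). Abcg1 differed by -0.63 and -0.58 (mean -0.61 ± 0.12, adjusted p = 0.034), and both of its CD8-equivalent arrays lay below both CD4-equivalent ones. Mylip differed by -0.54 and -0.55 (mean -0.55 ± 0.12, adjusted p = 0.043), and its adjusted p was 0.051 when no floor was set.

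Pltp and Apoe did not pass, although each was lower in CD8-equivalent DCs of both genotypes. Pltp differed by -1.08 in ko and -0.44 in wt (adjusted p = 0.058), and it passed with a floor of 7 (adjusted p = 0.042). With that floor the test called 956 of 8617 genes higher and 696 lower, against 817 and 650 of 10239 in the main fit. Apoe differed by -1.95 in ko and -0.14 in wt (mean -1.05 ± 0.42, adjusted p = 0.16). Lpcat3 (-0.03 and 0.03, adjusted p = 0.997) and Srebf1 (0.14 and -0.006, adjusted p = 0.73) had differences near 0, with a standard error of 0.12 for each mean. By the 2-fold count, 2 members were lower in CD8-equivalent DCs of ko (Apoe and Pltp) against 3.90% of all genes, and 0 were higher against 3.39%. After cyclic loess 4 members were past 2-fold in ko, adding Abca1 and Rxra, against 7.14% of all genes in either direction. Of all genes past 2-fold, 35.2% were then higher, against 46.5% as deposited. In wt, 1 was lower (Abca1) against 3.14%, and 0 were higher against 2.10%.

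**Figure D3:**
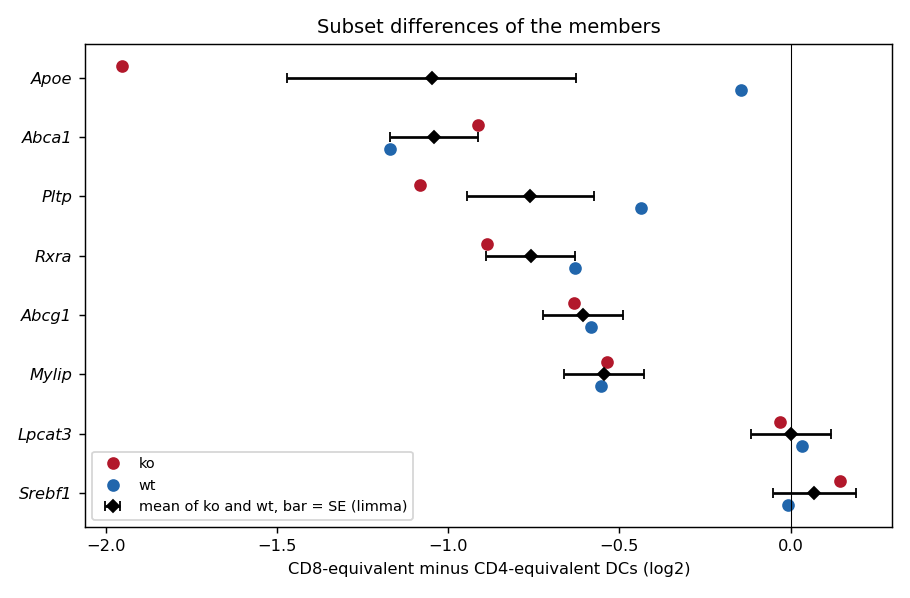
Difference between CD8-equivalent and CD4-equivalent DCs (log2, horizontal axis) for the 8 members at or above the floor. Red circles are ko, blue circles are wt, and black diamonds are the mean of both with the standard error of the limma fit as a bar. Abca1, Rxra, Abcg1 and Mylip have both circles left of 0 and close together, while the Apoe circles lie at -1.95 and -0.14.

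How far the genotype difference itself varied with the subset could be given as a value only, since it takes the last degree of freedom. The genotype difference in CD8-equivalent DCs minus that in CD4-equivalent DCs was -1.81 for Apoe, -0.64 for Pltp, -0.26 for Rxra and 0.25 for Abca1. After cyclic loess it was -0.43 for Rxra and 0.086 for Abca1. As deposited, it lay between -0.06 and 0.15 for Abcg1, Mylip, Srebf1 and Lpcat3.

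Markers of other cells moved on some of the same arrays. Of 16 measured macrophage and monocyte markers, 11 could be compared in CD8-equivalent DCs. Of these, 5 were past 2-fold below wt in ko, against 1.00% of all genes, and 0 above, against 1.14%. The summed linear signal of the 16 was 11830 in ko and 17656 in wt CD8-equivalent DCs, and 28442 in ko and 29394 in wt CD4-equivalent DCs. The macrophage receptor Adgre1 (-3.00) and the complement gene C1qb (-2.37) had the largest differences below 0 of the 11 in CD8-equivalent DCs. Others of the list read near or above wt there, namely Csf1r (0.38), Cd14 (0.002), Fcgr1 (-0.05) and Ccr2 (-0.07). Apoe, a gene that macrophages express strongly, differed by -2.16. In ko CD4-equivalent DCs 1 marker (C1qb, 1.03) was past 2-fold above wt, against 1.39% of all genes, and 1 (Adgre1, -1.55) below, against 0.952%. Between the subsets, 10 of 11 of these markers were at least 2-fold lower in CD8-equivalent DCs in ko (3.90% of all genes), and 5 of 11 in wt (3.14%). Their part in the Apoe values and in the subset differences was not tested. The scavenger receptors Cd163 and Marco, which mark tissue macrophages, lay under the floor on all 4 arrays.

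Of 13 neutrophil markers compared in CD4-equivalent DCs, 10 were at least 2-fold higher in ko, against 1.39% of all genes. By 2-fold or more 0 were lower, against 0.952%, though Csf3r (-0.74) and Mmp8 (-0.69) read below wt. The summed linear signal of the 15 measured was 4543 in ko and 1196 in wt. In CD8-equivalent DCs, 2 of the 15 neutrophil markers could be compared, and 1 of them, Mpo, was at least 2-fold higher in ko, against 1.14% of all genes. The other, Prtn3, differed by 0.38. The rest, S100a8, S100a9, Ngp, Lcn2 and Retnlg among them, lay under the floor in CD8-equivalent DCs of ko and wt. Mpo differed by 2.76 in CD8-equivalent and by 1.85 in CD4-equivalent DCs. The sums in CD8-equivalent DCs were 910 in ko and 691 in wt. The Abca1 difference was 1.93 in CD8-equivalent and 1.68 in CD4-equivalent DCs, and the part of these markers in it was not tested. Of 9 plasmacytoid markers, 0 exceeded wt by 2-fold in ko CD8-equivalent DCs (1.14% of all genes) and 3 did in ko CD4-equivalent DCs (1.39%). In CD8-equivalent DCs 0 were past 2-fold below wt (1.00%), and in CD4-equivalent DCs 0 were (0.952%). Irf7 read below wt in both (-0.55 and -0.26), and Ly6d in CD8-equivalent DCs (-0.49). The sums of the 9 were 14082 in ko and 11856 in wt CD8-equivalent DCs, and 9796 in ko and 5307 in wt CD4-equivalent DCs. Whether these cells bear on the Pltp and Rxra values in CD4-equivalent DCs was not tested. Of 4 B cell markers, 0 reached the floor on 3 of the arrays and 1 (Ebf1) did in ko CD8-equivalent DCs. Of 5 mast cell, basophil and eosinophil markers, Cpa3 alone reached it, on that array too.

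**Figure D4:**
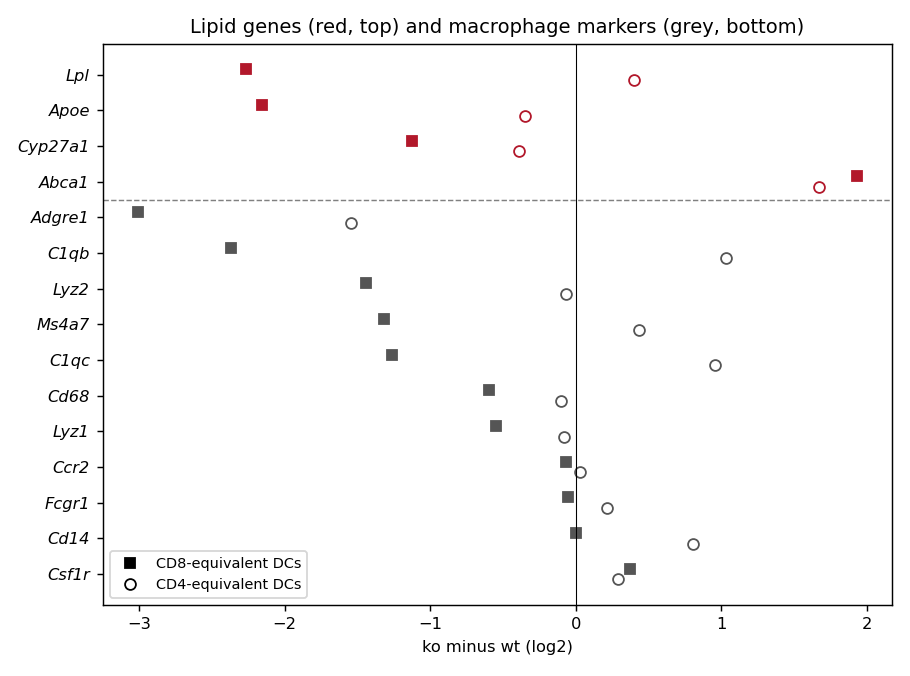
Difference between ko and wt (log2, horizontal axis) in CD8-equivalent DCs (filled squares) and CD4-equivalent DCs (open circles). The 4 lipid genes are in red at the top, and the 11 macrophage and monocyte markers at or above the floor are in grey below. Apoe, Lpl, Adgre1 and C1qb lie beyond -2 in CD8-equivalent DCs, where Abca1 lies at 1.93.

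The wider pathway was followed through 8 lists of 86 genes, of which 74 had a value and 45 could be tested. The subset fit called 8 of the 45 lower in CD8-equivalent DCs, against 6.35% of all genes, and 2 higher, against 7.98%. Between the genotypes, 0 of 42 compared genes were past 2-fold above wt in ko CD8-equivalent DCs (1.14% of all genes) and 3 below it (1.00%). In ko CD4-equivalent DCs 3 of 45 were above (1.39%) and 2 below (0.952%). The median genotype differences were -0.04 and -0.05, beside 0.0044 and -0.08 over all genes compared. The shares of all genes given here also stand beside the genotype counts of the single lists that follow. Each list holds few genes, so a count of 0 past 2-fold is not read as a result about it.

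Among the partners and coregulators of LXR, none of 7 compared genes reached 2-fold between the genotypes. Pparg, a nuclear receptor for fatty acids that also pairs with RXR, was lower in CD8-equivalent DCs (-2.05 in ko and -1.57 in wt, adjusted p = 0.0077). It read 5.70 in ko and 6.58 in wt CD8-equivalent DCs, and 7.75 in ko and 8.14 in wt CD4-equivalent DCs. Both ko values were below their wt counterparts (-0.88 and -0.39), while those of Rxra were above. Ppard, Nrip1 and Ncoa1 had absolute differences of at most 0.41 in the 4 comparisons.

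Other reported LXR targets were mixed in direction. Of 6 that could be compared, 1 was past 2-fold below wt in ko CD8-equivalent DCs, against 1.00% of all genes. In ko CD4-equivalent DCs, 2 were past 2-fold above wt, against 1.39%. Scd1, the desaturase that makes monounsaturated fatty acids, read 6.51 in ko and 5.58 in wt CD8-equivalent DCs, and 7.05 in ko and 5.77 in wt CD4-equivalent DCs, so that both ko arrays lay above both wt arrays, 1 of which was under the floor. Smpdl3a, a phosphodiesterase related to acid sphingomyelinase, read 6.34 in ko and 6.31 in wt CD8-equivalent DCs, but 8.82 in ko and 6.70 in wt CD4-equivalent DCs. This 4.33-fold difference stood on 1 array. Lpl, lipoprotein lipase, read 6.73 in ko and 8.9998 in wt CD8-equivalent DCs, and 10.23 in ko and 9.83 in wt CD4-equivalent DCs. It was 4.81-fold lower in ko CD8-equivalent DCs, on the same array as the low Apoe value. Acaca, an enzyme of fatty acid synthesis, differed by 0.34 and -0.06. A further 8 measured targets of this list, among them the intestinal and liver sterol transporters Abcg5 and Abcg8, lay under the floor on all 4 arrays.

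For cholesterol trafficking and storage, 0 of 7 compared genes reached 2-fold between the genotypes. Lipa, the lysosomal lipase that frees cholesterol from its esters, was lower in CD8-equivalent DCs (-1.21 in ko and -0.73 in wt, adjusted p = 0.024). Scarb1, a receptor for HDL, was higher in ko by 0.17 in CD8-equivalent and 0.55 in CD4-equivalent DCs. Stard3, a cholesterol transporter of late endosomes, differed by -0.33 and -0.09, and Abca7 by -0.04 and -0.09.

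Oxysterols are the natural ligands of LXR, and 3 of 8 measured genes of this list could be compared. Cyp27a1, which makes an oxysterol from cholesterol in mitochondria, read 9.10 in ko and 10.22 in wt CD8-equivalent DCs, and 10.64 in ko and 11.03 in wt CD4-equivalent DCs. It was 2.18-fold and 1.31-fold lower in ko, and it was lower in CD8-equivalent DCs by the subset test (mean -1.18 ± 0.20, adjusted p = 0.026). Gpr183, an oxysterol receptor that positions DCs in tissue, was lower in CD8-equivalent DCs (-0.89 in ko and -0.67 in wt, adjusted p = 0.024). Hsd3b7, an enzyme of oxysterol breakdown, differed between the genotypes by -0.61 and -0.12.

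Of 4 lipoprotein uptake genes tested, 1 was higher and 1 lower in CD8-equivalent DCs by the subset test, against 7.98% and 6.35% of all genes. Lrp1, an endocytic receptor that binds APOE, was 11.9-fold lower in CD8-equivalent DCs in ko and 5.68-fold lower in wt (adjusted p = 0.0076), and ko exceeded wt 1.06-fold in CD8-equivalent and 2.21-fold in CD4-equivalent DCs. Lrp8, another APOE receptor and a substrate of IDOL, ran the opposite way, 2.55-fold and 2.27-fold higher in CD8-equivalent DCs (adjusted p = 0.0086). The scavenger receptors Cd36 and Msr1 take up modified lipoproteins, and each ko value lay below its wt counterpart. The differences in CD8-equivalent and CD4-equivalent DCs were -1.27 and -0.79 for Cd36 and -0.72 and -0.96 for Msr1, whose ko values were under the floor.

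Of 9 relatives of Lpcat3 and Pltp, 6 could be compared, and 0 of these reached 2-fold in any comparison. The relatives of Pltp, Bpi and Lbp, lay under the floor on all 4 arrays, so no difference was read from them. Lpcat2, which makes platelet-activating factor, was lower in CD8-equivalent DCs (-0.81 in ko and -0.82 in wt, adjusted p = 0.019), and differed between ko and wt by -0.76 and -0.77. Lpgat1 was higher in CD8-equivalent DCs by 0.67 and 0.66 (adjusted p = 0.027). Lpcat1 differed between ko and wt by -0.49 and -0.56, and Lpcat4 differed by -0.50 and 0.02. Of the SREBP regulators, 0 of 5 reached 2-fold or passed the subset test. Insig1, a retention factor and itself a sterol-responsive gene, was higher in ko by 0.44 and 0.42, and Insig2 by 0.26 and 0.45. Scap and Mbtps1 differed by 0.0091 and 0.30 in CD8-equivalent DCs and by -0.011 and -0.011 in CD4-equivalent DCs.

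Of the other ABCA and ABCG transporters, 7 could be tested, and 2 were lower in CD8-equivalent DCs, against 6.35% of all genes. These were Abca6 (-2.27 in ko and -3.18 in wt, adjusted p = 0.0073) and Abca9 (-2.37 and -2.35, adjusted p = 0.0027), and both lay under the floor in CD8-equivalent DCs of ko and wt. In CD4-equivalent DCs, Abca6 (-1.15) and Abcg3 (-1.20) read past 2-fold below wt in ko, and the ko value of Abcg3 was under the floor. Abcg2, a drug transporter, differed by 0.20 and -0.45.

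Abca1 was compared with 10231 genes outside the set by the root mean square gap between their values on the 4 arrays, each gene centred on its own mean. The nearest were Igf2bp3, an RNA-binding protein (gap 0.336), Cadm3, an adhesion molecule (0.336), Ly6a2 (0.354), Bhlhe40, a transcription factor (0.363), and Alox5, the leukotriene-forming lipoxygenase (0.365). In all, 17 genes lay within 0.5. The 5 nearest were picked by the Abca1 values, so sharing its directions was set by the choice. Their ko values were higher by 0.91 to 1.79 in CD8-equivalent and by 1.37 to 2.07 in CD4-equivalent DCs. They were lower in CD8-equivalent DCs of both genotypes. In wt CD8-equivalent DCs, Cadm3 (5.46) and Ly6a2 (5.64) lay under the floor. Likeness over 4 arrays is a description and carries no test. Of the members, Pltp was nearest to Abca1 (0.487), followed by Rxra (0.594), Mylip (0.788) and Abcg1 (0.828), and Apoe was farthest (1.61).

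**Figure D5:**
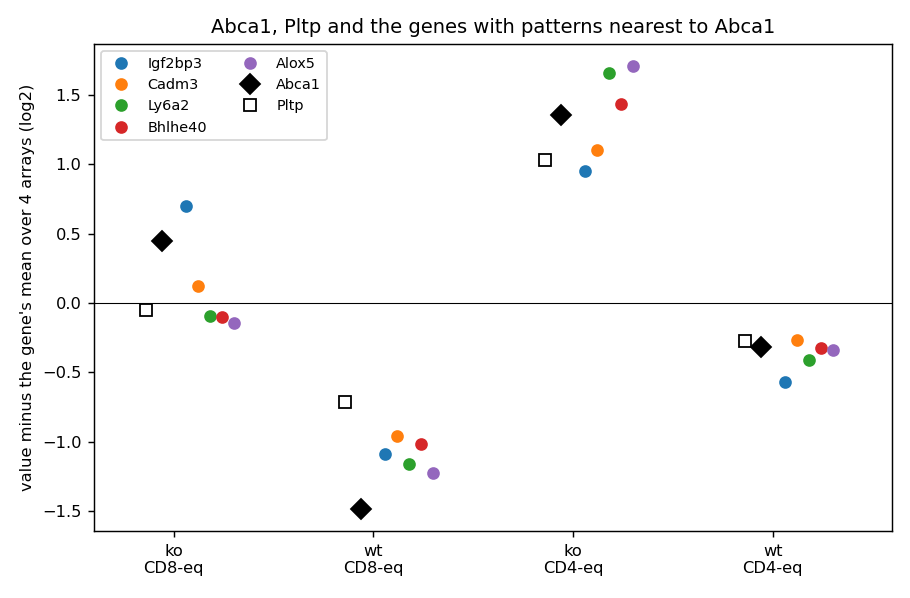
Values on the 4 arrays after subtracting each gene's own mean (log2, vertical axis), for Abca1 (black diamonds), Pltp (open squares) and the 5 genes nearest to Abca1 (coloured circles). All 7 are highest on the ko CD4-equivalent array and lowest on the wt CD8-equivalent array. In each, the ko CD8-equivalent value lies above the wt CD4-equivalent value. The 5 genes were picked for this likeness to Abca1.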

How the data were processed

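Each group was hybridised to 1 Affymetrix array. The authors deposited 1 log2 value per probe set, made with RMA and Partek, per the submitters' processing notes, which hold no versions. The log base was inferred from the values. Scanner files and detection calls were not used here, and precision rests on the number of arrays.

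Of 35399 probe sets, 21789 had 1 gene symbol in the platform annotation, 1621 had several and 11989 were unnamed here. The highest-mean probe set stood for each of 19938 genes. Members had 1 probe set each. Pairwise differences were counted where the higher value reached the floor of 5.68, the median over all single-symbol probe sets and arrays. The subset effect was tested with limma 3.58.1 (R 4.3.3; lmFit, eBayes, subset plus genotype, 1 residual degree of freedom, two-sided, Benjamini-Hochberg, threshold 0.05). Alternatives were no floor, a floor of 7, cyclic loess, median centring, the mean of probe sets, a 1.5-fold threshold, a trended robust prior and no genotype term. From each list the text names up to 4 genes at or above the floor, those with the largest absolute pairwise difference, and beside them the 5 genes nearest to Abca1; marker genes named singly, Abcg5 and Abcg8 were chosen after their values were seen. Members and lists were chosen with earlier results of these data known.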

Additional observations from a re-analysis of the deposited data

Results flagged for a closer look

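Some genes had opposite signs of the same contrast on the compared arrays. With 1 array per group, none of these differences was tested, and many are near 0. For the ko minus wt difference, the CD8-equivalent value minus the CD4-equivalent value was -2.67 for Lpl, which was lower in ko CD8-equivalent DCs and higher in ko CD4-equivalent DCs. It was 0.65 for Abcg2, -0.52 for Lpcat4, 0.41 for Acaca, 0.36 for Nrip1, 0.31 for Mbtps1, 0.13 for Ncoa1 and 0.020 for Scap.

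For the CD8- minus CD4-equivalent difference, the ko value minus the wt value was -0.49 for Hsd3b7, -0.18 for Insig2 and 0.065 for Lpcat1. Among the members it was 0.15 for Srebf1 and -0.064 for Lpcat3, both with subset differences near 0. Nrip1, Lpcat4 and Abcg2 had opposite signs here too, with the same values as above.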

How the results depend on the processing

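No paired analysis was possible because each group has 1 array and the labels give no replicate numbers, and leaving out an array leaves no residual degree of freedom. The counts of members past 2-fold moved by over 1.5 times in 3 cases. Between subsets in ko, the main count was 2, against 7.29% of all genes. Cyclic loess gave 4 there (adding Abca1 and Rxra), against 7.14%, and a 1.5-fold threshold gave 5, against 20.2%. In wt that threshold gave 2, against 15.2% of all genes, where the main count was 1, against 5.24%. The subset test called 4 members with Abca1 counted. It called 0 without the genotype term, which by construction puts the genotype difference into the residual. Without that term 0.967% of all genes passed. There 2 of 8 members had an unadjusted p under 0.05. The share of all genes at that cut was not counted, so nothing is read from these 2. Over the other alternatives the subset test called 3 to 5 members, again with Abca1 counted. Abcg1 and Rxra passed in each, while Mylip missed without the floor (adjusted p = 0.051). Abca1 passed too, but its p is not independent of its choice. Pltp passed with a floor of 7, median centring or the trended prior (adjusted p = 0.042, 0.037 and 0.025). In each of these settings the test also called a larger share of all genes than in the main fit. The main fit called 817 of 10239 genes higher and 650 lower. With a floor of 7 it called 956 and 696 of 8617, and without the floor 501 and 445 of 19938. It called 1211 and 890 of 10244 after median centring, and 1223 and 905 of 10239 with the trended prior. After cyclic loess it called 735 and 748 of 10239, and with the mean of probe sets 801 and 636 of 10189. Without the genotype term it called 25 and 74 of 10239. For ko minus wt, 40.9% of genes past 2-fold in CD8-equivalent DCs were higher after median centring, against 53.3% as deposited. Between subsets in ko, 35.2% were higher after cyclic loess, against 46.5%, and the median of all genes shifted by -0.10. Across scalings the mean genotype difference stayed between 1.78 and 1.84 for Abca1, 0.96 and 1.02 for Pltp, and -1.28 and -1.21 for Apoe. No mean genotype difference changed sign, but the difference of the genotype differences for Mylip, 0.016, was -0.10 after cyclic loess and -0.080 after median centring. After cyclic loess that value was 0.086 for Abca1 (0.25 as deposited), -0.43 for Rxra (-0.26) and 0.026 for Srebf1 (0.15). The cause was not tested. A 1.5-fold threshold gave, over all genes, 460 higher and 347 lower for ko minus wt in CD8-equivalent DCs (114 and 100 at 2-fold) and 397 and 371 in CD4-equivalent DCs (139 and 95). Between the subsets it gave 1231 and 815 in ko (343 and 395) and 788 and 733 in wt (210 and 314).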
